A study of Mus musculus with 2 samples.

Results

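The genes of the LSD1-CoREST complex were examined for binding of the transcription factor NRF1 (nuclear respiratory factor 1) at their own promoters in mouse skeletal muscle. The set was fixed by name and holds 9 of the 21000 protein-coding genes with a known RefSeq transcript, namely Kdm1a, Rcor1, Rcor2, Rcor3, Hdac1, Hdac2, Phf21a, Hmg20b and Zmym2. The measurement was ChIP-seq, in which DNA fragments bound by NRF1 are isolated with an antibody and sequenced, and binding is seen as a local excess of fragments (a peak) over a control. The series has 2 libraries, both labelled as wild-type skeletal muscle with the NRF1 antibody, and no age, sex or treatment is given in the labels. In the study's reporting summary replicate 2 appears as input DNA, against its label, and the 1 list of peaks available carries the title of replicate 1 in every peak name. Values therefore come from 1 peak list, without replicates and with unknown read depth, and no test between groups was possible. Chromatin came from nuclei of homogenized, filtered muscle, and the methods describe no sorting of myofiber nuclei, so the peaks cannot be assigned to a cell type.

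LSD1, the product of Kdm1a, is a flavin-dependent demethylase that removes methyl groups from histone tails. In the CoREST complex it is held on nucleosomes by a scaffold protein of the CoREST family (Rcor1, Rcor2 or Rcor3) and acts together with the histone deacetylases HDAC1 and HDAC2. PHF21A (BHC80), which reads the unmodified tail of histone H3, HMG20B (BRAF35), a DNA-binding protein with an HMG box, and ZMYM2, a MYM-type zinc finger protein, copurify with this core. NRF1 is known for its sites in CpG-rich promoters of genes for mitochondrial and other housekeeping functions. The study dealt with the joint action of LSD1, the glucocorticoid receptor and NRF1 on muscle genes, and the question here was whether genes of the LSD1 complex lie among the promoters where NRF1 was called.

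Of the 9 genes, Kdm1a and Hdac2 had an NRF1 promoter peak, that is, a peak whose summit lay 1000 bp before to 100 bp after a known transcription start. This is 22.2% of the genes (Wilson 95% interval 6.32 to 54.7%), against 13.4% of all protein-coding genes, of which 2808 had such a peak. With a fold enrichment of at least 5 or a q-value of at most 1e-05 required, only Hdac2 was left, and 12.8% of all protein-coding genes kept a promoter peak under either limit. The interval of the small set includes the share over all genes. All 9 genes had a CpG-rich start, defined as more than 50% GC and a ratio of observed to expected CpG above 0.6 in the 300 bp from 250 bp before to 50 bp after it. Among the 10405 protein-coding genes with such a start, 24.6% had a promoter peak, so the 2 of 9 were close to the share of promoters of this kind. Neither peak lay in the promoter of another gene.

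The sequences at both peaks are shown because they differ in their match to the palindromic NRF1 motif that the study names. The motif of 10 bases reads as the capitals in the first line, which is an exact copy from the peak nearest to Phf21a, at chr2:92055525-92055554 on the plus strand. Being its own reverse complement, it was searched on both strands at once. They are read 5′ to 3′ on the strand of the gene in the mm10 genome (RefSeq GRCm38). For Kdm1a, chr4:136602704-136602813 on the minus strand is shown, from 90 bp before the start to 19 bp after it, and capitals mark the copy with 1 mismatch. For Hdac2, chr10:36974245-36974345 on the plus strand is shown, from 299 to 199 bp before the start, and capitals mark 3 copies with 2 mismatches each.
Exact copy near Phf21a: gacacagccgGCGCATGCGCgtcagcggcc
Kdm1a: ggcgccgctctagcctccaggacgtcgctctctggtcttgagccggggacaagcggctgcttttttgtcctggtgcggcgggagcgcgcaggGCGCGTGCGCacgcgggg
Hdac2: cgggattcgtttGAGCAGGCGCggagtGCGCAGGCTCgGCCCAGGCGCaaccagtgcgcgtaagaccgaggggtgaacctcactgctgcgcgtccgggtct

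Kdm1a, on chromosome 4 from 136550533 to 136602723 on the minus strand, has 1 known start. Its peak spanned 136602632 to 136602775, and the summit lay 10 bp after the start, in the non-coding or untranslated part of the first exon. The fold enrichment given by the authors, signal at the summit relative to the control, was 4.29, with a MACS2 q-value of 0.00143. This was a weak and narrow peak. Among the 2607 promoter peaks, 45 had a lower fold enrichment and 2560 a higher one, and 23 had a less significant q-value. At 144 bp it was wider than 72 of the promoter peaks, and the median width of all of them was 296 bp. The copy of the palindrome at 136602712 to 136602721 was centred 3.5 bp before the summit and differed by A5G, with positions counted from 1 at its 5′ end. A further copy with the mismatches T6C and C10G overlapped it and was centred 2.5 bp after the summit.

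Hdac2, on chromosome 10 from 36974544 to 37001888 on the plus strand, gave a peak of common strength. It spanned 36974163 to 36974555, with a summit 239 bp before the only known start and outside any known transcript. A predicted RefSeq start of Hdac2 lay closer, with the summit 8 bp after it. The fold enrichment was 12.6 and the q-value 3.29e-24. The fold enrichment was higher than that of 1518 promoter peaks and lower than that of 1087, close to their median of 11.1, and the peak was 393 bp wide. Hence the peak at the gene of the deacetylase was stronger than that at the gene of the demethylase in fold enrichment and q-value, and it was wider, although the latter carried the closer match to the motif. Without replicates, the error of either value is unknown.

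**Figure D1:**
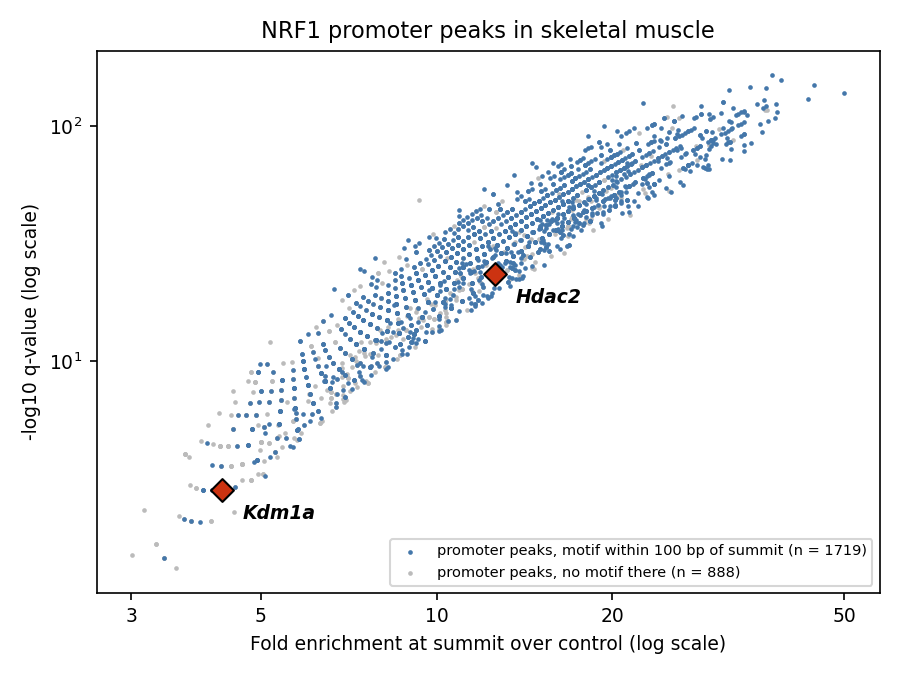
Each point is 1 NRF1 promoter peak, with its fold enrichment at the summit on the horizontal axis and its −log10 q-value on the vertical axis, both on log scales. Diamonds mark the Kdm1a peak, at 4.29 near the lower end of the cloud, and the Hdac2 peak, at 12.6 in its middle.

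No copy with at most 1 mismatch lay within 100 bp of the Hdac2 summit. In this it was like 34.1% of promoter peaks, since 65.9% of them held such a copy, the Kdm1a peak included. Fold enrichment had a median of 12.9 at promoter peaks with the motif and of 8.58 at those without it. Kdm1a stood lower in fold enrichment than all but 0.64% of the peaks with the motif, and Hdac2 stood above 77.5% of the peaks without it. At the Hdac2 peak, the 3 copies with 2 mismatches were centred 43.5, 28.5 and 17.5 bp before the summit, and all 3 carried T6G, together with C2A, G9T or G3C. Promoter peaks that lacked the motif but held at least 3 copies with 2 mismatches were few, 42 of the 2607, and their median fold enrichment was 8.56.

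The promoters of all 9 genes were then searched for the palindrome on both strands, over 1000 bp before to 100 bp after each of their 15 known starts. Only Kdm1a held a copy with at most 1 mismatch, which is 1 of 9 genes, beside 12.1% of all protein-coding genes. No promoter of the set held the exact palindrome. Copies with 2 mismatches were present at Kdm1a, Rcor2, Rcor3, Hdac1, Hdac2, Hmg20b and Zmym2, and in Rcor1 and Phf21a the closest match had 3.

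Where several starts were known, the best match of the gene is counted here. Over all protein-coding genes the share with a promoter peak went with this match. It was 89.4% of the 368 genes with an exact copy, 73.0% of the 2180 genes with 1 mismatch, 13.9% of the 5275 genes with 2 mismatches and 1.16% of the 13177 remaining genes. In the LSD1-CoREST set the gene with 1 mismatch had a peak, 1 of the 6 genes with 2 mismatches had one, and the remaining 2 genes had none. Hdac2 was the gene of the set with the most copies at 2 mismatches among those without a closer one, namely 4. Of the 227 protein-coding genes of this kind with at least 4 copies, 20.3% had a promoter peak (Wilson 95% interval 15.6 to 26.0%), against 11.5% (10.5 to 12.6%) of the 3630 genes with 1 copy, 17.9% (15.7 to 20.3%) of those with 2 and 22.9% (18.7 to 27.6%) of those with 3. The share thus did not rise further beyond 3 copies. Such a match is a description of the letters in the window and not a binding site.

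**Figure D2:**
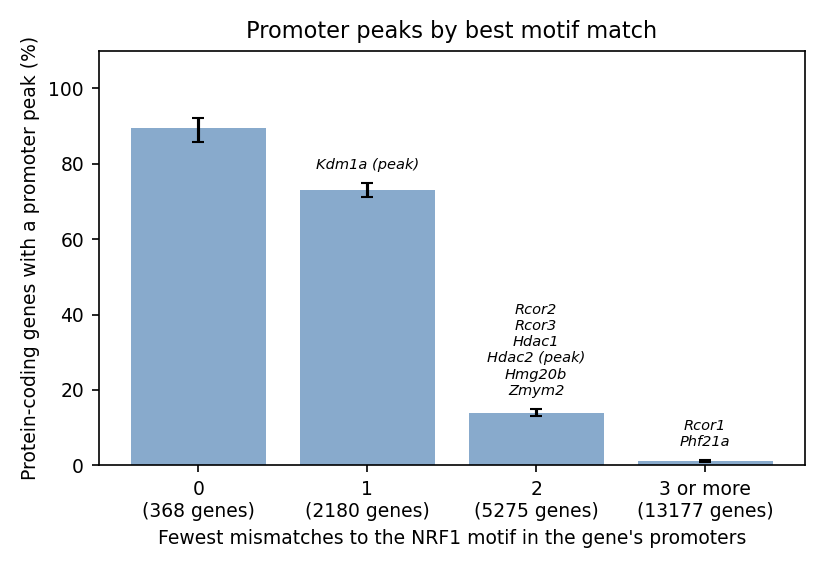
Bars give the percentage of protein-coding genes with an NRF1 promoter peak, grouped by the fewest mismatches to the palindrome in their promoters, with Wilson 95% intervals over genes. Names above the bars place the 9 genes, with a peak at Kdm1a among the genes with 1 mismatch (73.0%) and at Hdac2 among those with 2 (13.9%).

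The copies with 2 mismatches in promoters of Rcor2, Rcor3, Hdac1 and Hmg20b, which had no called peak, are shown next, to set them beside the Kdm1a copy. Each line holds a copy with 10 bases to either side, 5′ to 3′ on the strand of the gene, and capitals mark the mismatched bases.
Kdm1a, copy at the summit: agcgcgcagggcgcGtgcgcacgcgggggt
Rcor2, upstream start: gcggggacgggcAcaGgcgcagctcacagg
Rcor2, downstream start: agcggcggtagcgcGAgcgcggcggggcga
Rcor3: ccggtgtggggcgACtgcgctacggctcga
Hdac1: gcccgaccccgcgcatgcCGattggttaga
Hmg20b, upstream copy: ggcggagcgggcgcGGgcgcttggttggac
Hmg20b, downstream copy: cgggaagtccgGgcCtgcgcggggcggggg
These copies began 5 bp before (Rcor2, chr19:7267389-7267398) and 54 bp after (Rcor2, chr19:7268333-7268342) a start, 8 bp after it (Rcor3, chr1:192138023-192138032), 144 bp before it (Hdac1, chr4:129542781-129542790), and 8 bp before (Hmg20b, chr10:81350456-81350465) and 41 bp after (Hmg20b, chr10:81350376-81350385) a start. The copy at Hdac1 kept the first 8 bases of the palindrome and differed by G9C and C10G. The upstream copy at Hmg20b (A5G and T6G), the copies at the downstream start of Rcor2 (A5G and T6A) and at Kdm1a (A5G alone) share the A5G change, and both outer GCGC arms of the palindrome were kept in all of them. The downstream copy at Hmg20b differed by C2G and A5C and kept only the second arm. In Zmym2, which encodes a zinc finger partner of the complex, the 2 copies lay farther from the start, 966 and 618 bp before it. The copy at 966 bp also had the A5G change, but with G9T, and kept only the first arm.

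**Figure D3:**
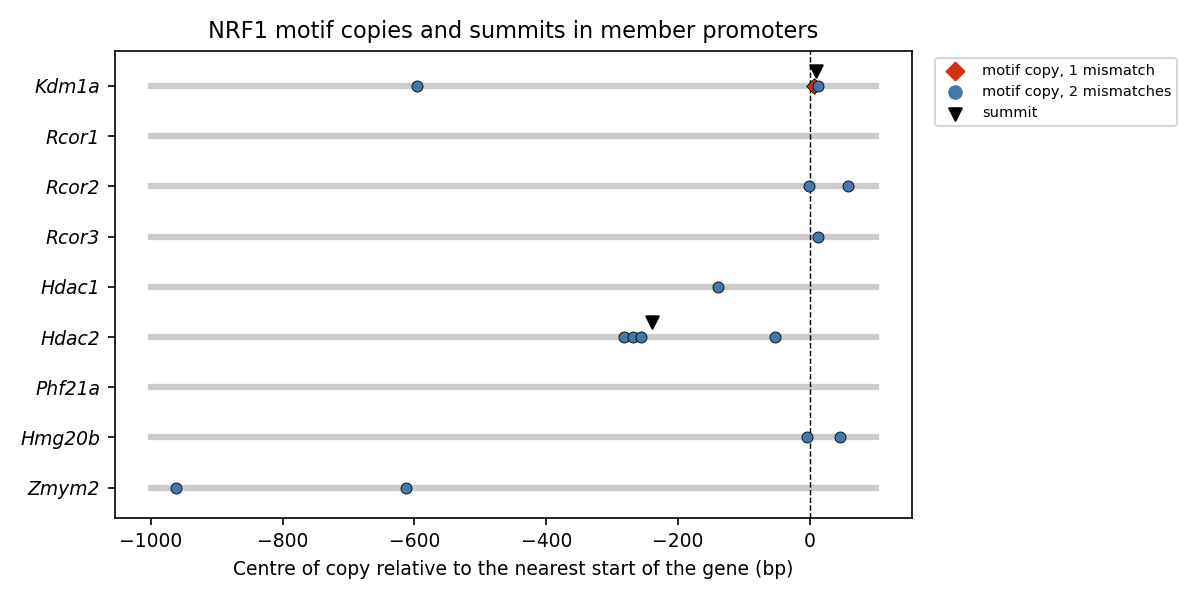
Each grey line is the promoter window of 1 gene, from 1000 bp before to 100 bp after its nearest known start. The diamond marks the Kdm1a copy with 1 mismatch, circles mark copies with 2 mismatches, and triangles mark the summits, at 10 bp for Kdm1a and at -239 bp for Hdac2.

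None of the scaffold genes had a promoter peak. At Rcor1, which encodes the founding CoREST protein, the nearest summit lay 173193 bp before the start, in an intron of Zfp839, with a fold enrichment of 6.4. At Rcor2 it lay 26286 bp before the start, in a non-coding or untranslated exon of Naa40 and 114 bp after a start of that gene, and its fold enrichment was 18.8. At Rcor3 it lay 562316 bp after the start, in the shared promoter of Ints7 and Dtl, with a fold enrichment of 14.4. None of these 3 paralogs held a peak in its gene body.

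Between the paralogous deacetylases, Hdac2 had a promoter peak and Hdac1 did not. The summit nearest to Hdac1 was that of the Iqcc promoter, 76463 bp before the Hdac1 start, with a fold enrichment of 20.5. Both promoters were rich in GC, and the CpG ratio was lower in Hdac1. The 300 bp around the start held 73.0% GC with a CpG ratio of 0.803 in Hdac1, and 69.7% with a ratio of 1.01 in Hdac2. Both values of both genes were above the medians over all protein-coding starts, 56.7% GC and a ratio of 0.581.

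The genes of the histone reader, the HMG box protein and the zinc finger partner also lacked promoter peaks. For Phf21a the nearest summit was intergenic, 128688 bp before the first known start. It had a fold enrichment of 18.9 and held the exact palindrome. For Hmg20b it was that of the Fzr1 promoter, 28326 bp before the start, with a fold enrichment of 17.0, and 6 summits lay within 100 kb of an Hmg20b start, the most in the set. For Zmym2 it was that of the Pspc1 promoter, 108189 bp before the start, with a fold enrichment of 13.0.

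These 7 genes were not unusually far from NRF1 peaks. Their median distance was 108189 bp, and over the 18192 protein-coding genes without a promoter peak the median was 186975 bp, with quartiles of 58885 and 585252 bp. Rcor2 and Hmg20b lay nearer than the lower quartile, and the other 5 fell between the quartiles. Read depth is unknown, so weak binding and its absence cannot be told apart at these promoters.

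**Figure D4:**
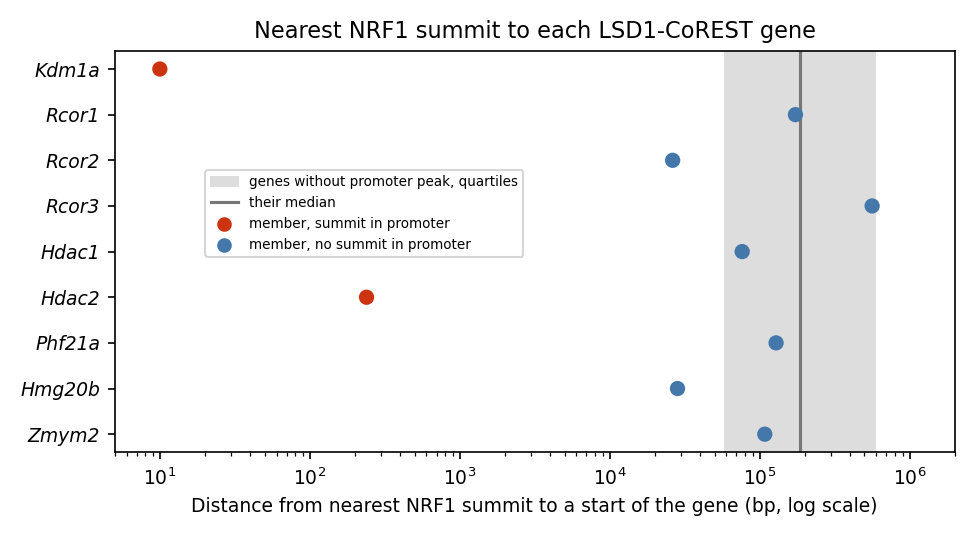
Points give the distance in bp, on a log scale, from each gene's nearest known start to the nearest NRF1 summit; the grey band and line are the quartiles and median of protein-coding genes without a promoter peak. Kdm1a (10 bp) and Hdac2 (239 bp) stand apart from the 7 other genes, which lie between 26286 and 562316 bp.

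CpG ratios of genes with and without a peak overlapped, through Hmg20b. The 300 bp at the Kdm1a start had 61.3% GC and a CpG ratio of 1.08, and coding starts whose promoter held a summit had medians of 64.0% and 0.875. Kdm1a and Hdac2 (1.01) both lay above the highest start of 6 of the 7 genes without a peak, which ranged from 0.669 to 0.949. Hmg20b, without a peak, reached a CpG ratio of 1.06 to 1.09 at its 3 starts, and Rcor3 had the highest GC content of the set, 81.7%. Phf21a was the most varied, with a CpG ratio of 0.859 at 1 start and of 0.157 and 0.121 at the others.

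Wider lists of related genes were described in the same way, by counts alone. Among 7 further genes, listed as associates or paralogs of the LSD1-CoREST members, 3 had a promoter peak. Among these were Kdm1b, the paralog of Kdm1a, at a fold enrichment of 22.5 in a promoter shared with Tpmt, and Gse1 at 5.39. Zmym3, the paralog of Zmym2, had none. Thus for the demethylase both paralogs were called, although the Kdm1a peak did not pass the stricter limits on fold enrichment or q-value. The corepressor genes Ctbp1 and Ctbp2 had no promoter peak, but a summit lay 391 bp after a start of Ctbp1, beyond the promoter window. Of 9 transcription factors that recruit the complex, Rest, the silencer of neuronal genes (6.61), and Zfp217 (16.1) had a peak, and Gfi1, Gfi1b, Snai1, Snai2, Insm1, Zeb1 and Zeb2 had none.

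HDAC1 and HDAC2 also serve the NuRD, SIN3 and MiDAC complexes, and HDAC3 serves NCoR/SMRT. In NuRD, 4 of 12 genes had a promoter peak, the histone chaperones Rbbp7 (fold enrichment 30.8) and Rbbp4 (9.03), Mbd3 (29.5) and Gatad2a (10.1). In SIN3 it was 7 of 12, namely Ing2 (16.5), Sap18 (13.7), Sin3b (11.1), Arid4a (8.52), Arid4b (7.6), Ing1 (5.94 at the nearest summit and 23.2 at a stronger promoter peak) and Sap30 (5.78). The peaks of Rbbp4, Ing2, Sap18 and Arid4b also lay in a promoter of another gene. In MiDAC, Mideas (6.26) and Dnttip1 (4.75) of 3 genes had one, and in NCoR/SMRT only Hdac3 (4.49) of 6. The NuRD gene Mbd2 was counted without a promoter peak, but a summit lay 113 bp after a start. That summit was in a non-coding or untranslated exon of Mbd2, just beyond the promoter window. In NCoR/SMRT, the summit nearest to Ncor1 lay 1139 bp before a start, also beyond the window, and in the promoter of Pigl. Over the 49 genes of these 6 lists, 19 or 38.8% had a promoter peak (26.4 to 52.8%), with a median fold enrichment of 9.03 for the strongest promoter peak of each gene, against 13.4% and 11.4 over all protein-coding genes. Of the 49 genes, 43 had a CpG-rich start, and 17 of these had a peak, beside the 24.6% given above for such genes. In SIN3, 6 of the 12 genes held a copy of the palindrome with at most 1 mismatch in a promoter, and all 6 had a peak. Over all protein-coding genes 12.1% held such a copy, and 75.4% of these had a peak.

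**Figure D5:**
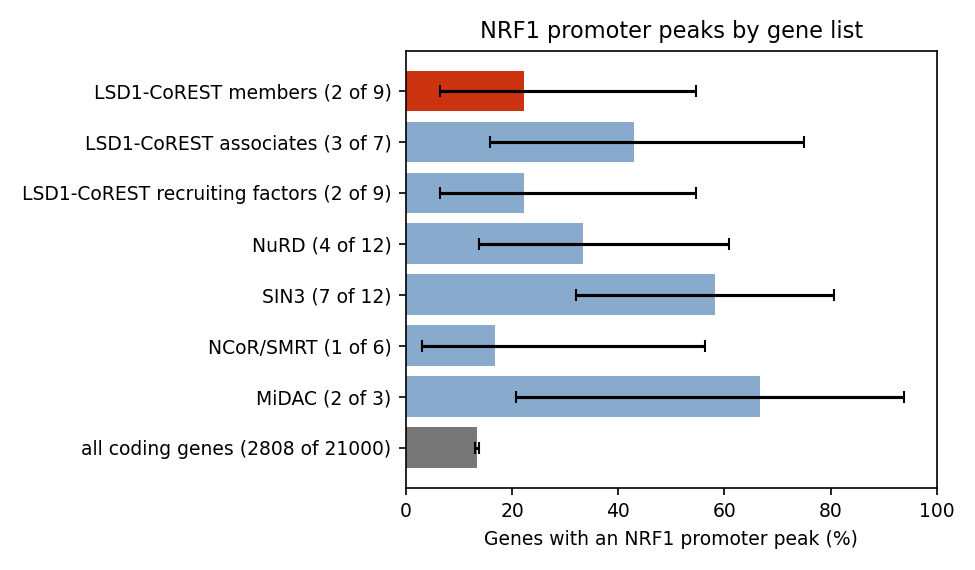
Bars give the percentage of genes in each list with an NRF1 promoter peak, with Wilson 95% intervals that cover counting error over genes only. The LSD1-CoREST set (2 of 9) has the same share as the recruiting factors and lies between NCoR/SMRT (1 of 6) and NuRD (4 of 12), and its interval includes the 13.4% of all protein-coding genes. The NCoR/SMRT peak and the Kdm1a peak had a fold enrichment below 5.

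The other factors of the study were outside the promoter window at their own genes. The summit nearest to Nrf1 lay 119 bp after a start, in a non-coding or untranslated exon of the gene, only just beyond the 100 bp limit. That nearest to Nr3c1, which encodes the glucocorticoid receptor, was found 2664 bp after a start, in a coding exon.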

How the data were processed

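NRF1 ChIP-seq peaks of skeletal muscle from wild-type mice were analysed as 1 list without replicate values. According to its methods, the authors mapped reads to mm10 with Bowtie, kept unique reads, removed blacklisted regions (the blacklist named is of a human build) and called peaks with MACS2 against input DNA. For each peak the authors deposited a fold enrichment (a ratio of signal to control), the −log10 q-value, a score that is 10 times it, and the summit. The −log10 p-value, 1 further value column, was not used. Of 3226 peaks, 7 had a q-value above the stated limit of 0.01. The reporting summary gives that limit and an m-fold range from 5 to 50 as the conditions for its peaks. Whether this range was a limit on the listed fold enrichment is not stated. In the list, 191 peaks, that of Kdm1a included, had a fold enrichment below 5. The list holds more peaks than the study counts, and whether the Kdm1a peak is among those counted is not known. Unique mapping lowers signal in repeats.

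Starts were those of 45756 known RefSeq transcripts (GRCm38). Both strands were searched for the motif within 100 bp of summits and in promoter windows, with at most 1 mismatch. Intervals are Wilson 95% intervals and cover counting error over genes only. Scripts ran in Python 3.11.15 with pandas 2.3.3 and numpy 2.4.6 and were tested on simulated data. The 9 genes, the wider lists and the CpG-rich class were chosen with earlier results of these data known. Named genes were the 9 genes, genes sharing their peaks, all list genes with a promoter peak (at most 10 a list), Nrf1 and Nr3c1. List genes without a peak are named to complete the counts or where a summit lay close to the promoter window. In addition, 1 list gene is counted but not reported by name here. Alternatives concerned the promoter window, peak threshold, overlap, annotation and motif search.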

Additional observations from a re-analysis of the deposited data

How the results depend on the processing

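For 5 results, 34 alternative values were computed. The count of 2 genes with a promoter peak held under both other promoter windows, with any overlap, with predicted starts and with GENCODE M21 basic starts, the last chosen after seeing the data. It fell to 1, Hdac2, at a q-value of at most 1e-05 and at a fold enrichment of at least 5, since the Kdm1a peak is then left out. The median fold enrichment, 8.45 for the pair, was 12.6 under both of these settings, and the count of 1 peak with the motif became 0. That count was also 0 with no mismatch allowed and 2 with 2 mismatches. The share of all protein-coding genes was 14.7% with the promoter widened to 2000 bp before and 500 bp after, 14.1% with 500 bp on either side, 14.2% with any overlap, 13.9% with predicted starts, and 12.8% under both stricter peak thresholds. The wider lists had 17 to 22 genes with a peak. No paired analysis was possible because 1 peak list covers the only group, and leaving out a replicate could not be done for the same reason. Read depth is unknown, which bears on all genes without a peak.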
